A study of Homo sapiens with 6 samples.

Results

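The cells studied here, H226, are a line derived from a squamous cell carcinoma of the human lung, and their expression was followed after 12 h of Nutlin-3. RNA of 4 of the series' 6 arrays was compared: 2 arrays of untreated cells in normal growth (control) and 2 arrays of cells given 10 µM Nutlin-3 for 12 h. Both groups carried an inducible shRNA against p63 that was kept off (shp63 OFF). The other 2 arrays, of cells given 1 µg/mL doxycycline for 48 h to turn that shRNA on (shp63 ON), entered the fit only to share its estimate of the spread. The labels name no vehicle for the control cells, and every array is of 1 line. They do not say whether the replicates were separate cultures, so p-values measure only the spread between these arrays. The members are all 18404 genes measured by a probe set that names exactly 1 gene. Each is represented by its probe set of highest mean over all 6 arrays, the shp63 ON arrays included.

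MDM2 is the ubiquitin ligase that binds p53 and marks it for destruction. Nutlin-3 occupies the pocket of MDM2 that holds p53, so p53 accumulates and binds its sites in DNA without DNA damage. Genes with such sites are switched on, among them CDKN1A, whose product p21 inhibits cyclin-dependent kinases. With the kinases inhibited, RB-family proteins stay bound to E2F factors and, as part of the DREAM complex, hold genes of S phase and mitosis down through E2F and CHR promoter elements. In squamous epithelium p53 shares many binding sites with its relative p63.

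The response reached a large part of the measured genes but was mostly small in size, and the number of calls depended on single arrays. Differences are given as Nutlin-3 minus control on the log2 scale (1 is a 2-fold change), and genes count as called where limma's moderated test gave an adjusted p below 0.05. In all, 3410 of 18404 genes were called (18.5%), 1774 higher (9.64%) and 1636 lower (8.89%). Without control array 1 the calls were 1405 (7.63%) and without control array 2 they were 1656. The median fold was 1.32 among genes called higher and 1.29 among those called lower. At 1.5-fold or more there were 456 genes higher (2.48%) and 328 lower (1.78%), and at 2-fold or more 140 higher and 130 lower. The falls reached further: FAM111B, the gene furthest down, read 10.51 and 10.47 in control and 6.21 and 5.98 with Nutlin-3, which is 21.09-fold, while ABCA12, the gene furthest up, rose 6.68-fold. The plot of control level against change shows this asymmetry.

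**Figure D1:**
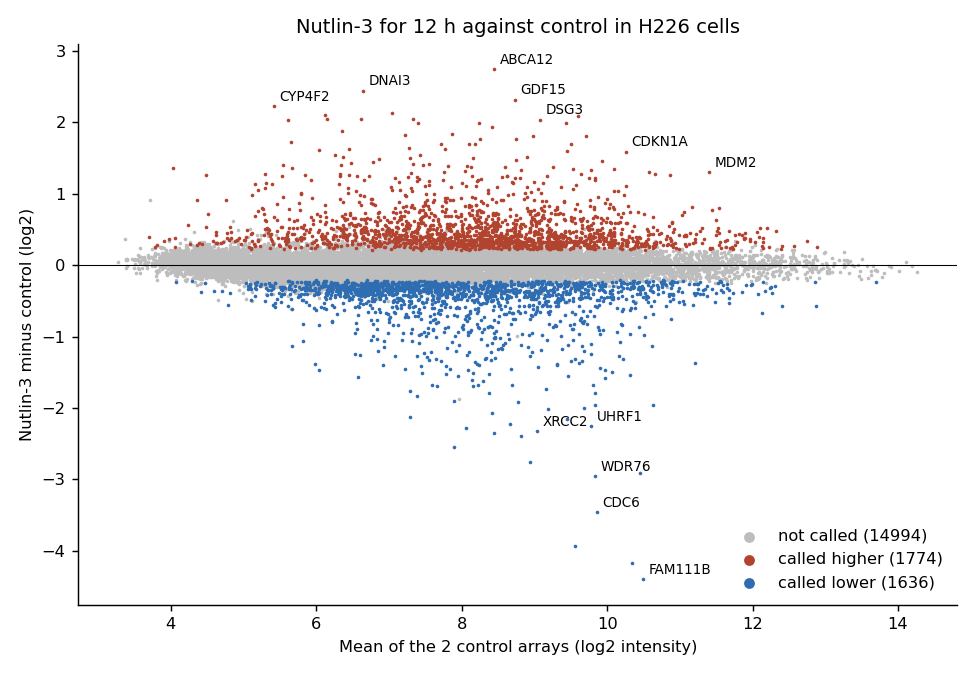
Each point is 1 of 18404 genes, with the mean log2 intensity of the 2 control arrays on the x axis and the log2 difference of Nutlin-3 minus control on the y axis. Red points (1774) were called higher and blue points (1636) lower by limma, and grey points (14994) were not called. The lowest points, such as FAM111B and CDC6, lie further from 0 than the highest, such as ABCA12.

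The share of genes called depended on how bright the gene was in control cells. Among the 3025 genes between 7 and 8 in control, 13.1% were called higher and 13.5% lower. Among the 2021 genes between 4 and 5, the shares were 1.48% and 0.396%. The gene groups below differ in level, and their counts should be read with these shares in mind. Setting each array's median equal before the fit turned the split of 1774 higher and 1636 lower into 2175 higher and 1236 lower (52% and 63.8% of calls higher), and moved the median of all genes from -0.002 to 0.032.

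The named markers of p53 activation were all higher. MDM2 read 11.44 and 11.37 in the control arrays and 12.47 and 12.93 with Nutlin-3, a difference of 1.30 (SE 0.14, adjusted p = 0.000718). CDKN1A read 10.21 and 10.30 against 11.85 and 11.84, a difference of 1.59 (SE 0.064, adjusted p = 9.27e-06). GDF15, a secreted stress cytokine of the TGF-beta family, read 8.67 and 8.80 against 11.09 and 11.01, a difference of 2.32 (SE 0.080, adjusted p = 4.77e-06). In each, both Nutlin-3 arrays stood above both control arrays, and the pair of Nutlin-3 arrays differed most for MDM2. Across genes, r between replicates was 0.998 for the control arrays and 0.997 for the Nutlin-3 arrays.

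Classic p53 targets and genes of replication and mitosis are not followed here as groups beyond the size of their response. Single members are named below where another list or rule includes them. Of 64 measured members of a list of known targets, 51 were higher, and of 58 replication and 67 mitotic genes 50 and 62 were lower. The arrays measure RNA from whole cultures, so fewer cells in a phase of the cycle and less RNA per cell cannot be told apart. Outside these 3 lists lay 18215 genes, of which 1723 were higher and 1523 lower. Of the changes of 3-fold or more, 24 of 34 rises and 19 of 36 falls were outside them. The lists are not complete, so a gene outside them may still be a known p53 target or cell cycle gene. The 20 largest changes outside the lists in each direction are described first.

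The largest rises outside the lists were in genes for enzymes and carriers of lipids, secreted proteins, adhesion molecules and a few regulators of transcription. CYP4F2, a fatty acid omega-hydroxylase, read 5.47 and 5.38 in control and 7.51 and 7.78 with Nutlin-3, a difference of 2.23 (SE 0.10, adjusted p = 1.44e-05). Its relative CYP4F3 read 7.71 and 7.73 against 9.42 and 9.42, a difference of 1.70 (SE 0.086). ACER2, the ceramidase of the Golgi, read 7.22 and 7.45 against 9.39 and 9.36, a difference of 2.04 (SE 0.086). STARD5, a lipid-binding protein of the START family, rose by 1.98 (SE 0.091) and ABCC2, a pump that exports conjugated organic anions, by 2.05 (SE 0.082). CYP4F2 was dim in control and ABCC2 of middle brightness (6.55 and 6.70), whereas STARD5 went from 8.12 and 8.36 to 10.23 and 10.22.

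Among secreted proteins, STC1, the glycoprotein hormone stanniocalcin, read 6.94 and 7.15 in control and 9.13 and 9.21 with Nutlin-3, a difference of 2.13 (SE 0.084, adjusted p = 9.27e-06). ESM1, the proteoglycan endocan, read 6.02 and 6.27 against 8.31 and 8.09, a difference of 2.05 (SE 0.11). PLAT, tissue plasminogen activator, read 8.01 and 8.20 against 9.92 and 9.68, a difference of 1.69 (SE 0.10). These 3 products act outside the cell. GASK1B, a Golgi-associated kinase-like protein, rose by 1.77 (SE 0.062) and MUC19, a gel-forming mucin, by 1.73 (SE 0.073).

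Several of the largest rises encode proteins of the cell surface. DSG3, a desmosomal cadherin of squamous epithelium, read 9.03 and 9.12 in control and 11.12 and 11.10 with Nutlin-3, a difference of 2.03 (SE 0.064, adjusted p = 3.77e-06). CDH10, a classical cadherin, read 5.71 and 5.52 against 7.62 and 7.67, a difference of 2.03 (SE 0.096). CLCA2, a membrane protein that regulates chloride channels, read 7.90 and 7.85 against 9.70 and 9.72, a difference of 1.84 (SE 0.062). DSG3 ended among the bright genes of these cells, while CDH10 was dim in control. FRMPD2, a scaffold protein with FERM and PDZ domains, rose by 2.10 (SE 0.11).

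In the nucleus, PRDM1, the repressor Blimp-1 that drives terminal differentiation of several lineages, read 7.49 and 7.31 in control and 9.38 and 9.40 with Nutlin-3, a difference of 2.00 (SE 0.075, adjusted p = 7.66e-06). NUPR1, a small stress-induced nuclear protein, read 8.997 and 8.96 against 10.81 and 10.76, a difference of 1.81 (SE 0.072). ZNF385A, a zinc finger protein that can bind p53, read 8.44 and 8.41 against 10.44 and 10.27, a difference of 1.94 (SE 0.078). DQX1, a helicase-like protein, rose by 1.87 (SE 0.082). Of signalling genes, RGS2, which shortens G protein signals, rose by 1.81 (SE 0.078) and S100A3, a calcium-binding protein, by 1.83 (SE 0.11).

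The largest falls outside the lists were, for the most part, further genes of DNA copying, recombination and chromatin. WDR76, a WD-repeat protein that binds chromatin, read 9.89 and 9.78 in control and 6.74 and 7.02 with Nutlin-3 and fell by 2.96 (SE 0.097, adjusted p = 3.8e-06), which is 7.77-fold. XRCC2, a protein of homologous recombination, read 9.01 and 9.07 against 6.66 and 6.77 and fell by 2.33 (SE 0.068). EXO1, an exonuclease that resects DNA ends and serves mismatch repair, read 8.18 and 7.96 against 6.01 and 5.57 and fell by 2.28 (SE 0.16). BLM, the RecQ helicase mutated in Bloom syndrome, fell by 2.07 (SE 0.077) from 8.38 and 8.44. The Nutlin-3 arrays lay below both control arrays in all of these, as the choice of genes required, and those of EXO1 differed most from each other.

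PCLAF, a PCNA-binding protein, and UHRF1, the reader of hemimethylated DNA that keeps methylation through replication, each have 2 probe sets that disagreed in size. The brighter one of PCLAF fell by 2.36 (SE 0.077) and the dimmer differed by -1.18. The brighter one of UHRF1 read 9.78 and 9.79 in control and 7.57 and 7.48 with Nutlin-3 and fell by 2.26 (SE 0.068), and the dimmer differed by -0.21. TCF19, a PHD finger protein of the G1/S transition, fell by 1.92 (SE 0.10), and its dimmer probe set differed by -2.58. The direction was the same for both probe sets of each gene.

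TICRR, which loads CDC45 at origins, fell by 2.00 (SE 0.10), and ASF1B, a chaperone of histones H3 and H4, by 2.01 (SE 0.12). CDCA5, the cohesin protector sororin, read 7.83 and 7.97 in control and 6.15 and 5.83 with Nutlin-3 and fell by 1.91 (SE 0.11). ESCO2, which acetylates cohesin during S phase, fell by 1.70 (SE 0.066). These genes couple DNA copying to the pairing of sister chromatids and the packing of new DNA. CHEK1, the checkpoint kinase of stalled forks, fell by 1.68 (SE 0.081), PLK4, which starts centriole copying, by 1.63 (SE 0.080), and RBL1, the pocket protein p107, by 1.67 (SE 0.083). Not all of them are cell cycle genes by name: SLFN11, which blocks stressed replication forks, fell by 1.60 (SE 0.080), and the zinc finger genes ZNF367 and ZNF724 by 1.70 and 1.80. The histone genes H2BC14 and H1-5 fell by 1.96 and 1.58, and their transcripts, which lack a poly(A) tail, are read here by whole-transcript probes.

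**Figure D2:**
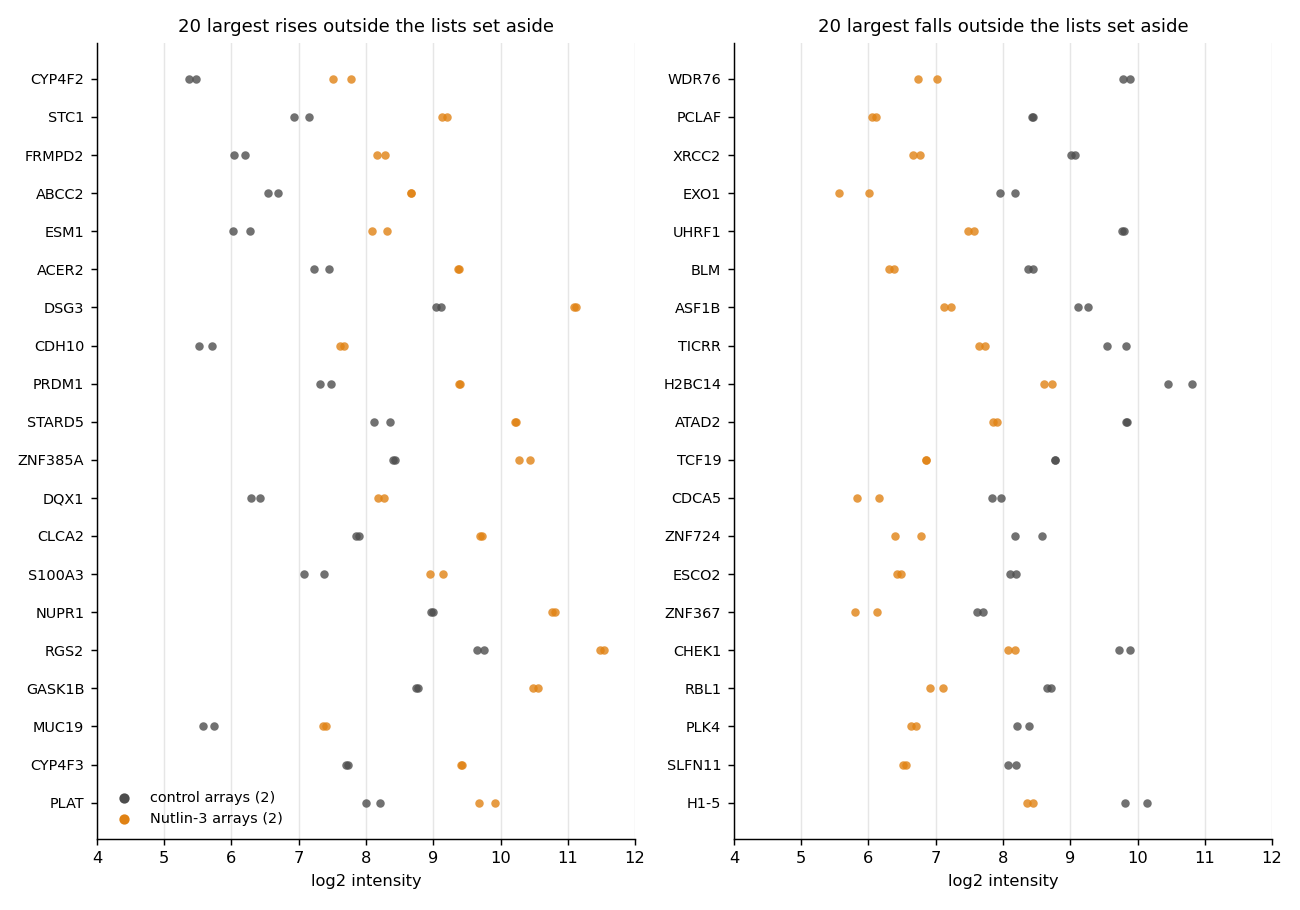
Log2 intensity in every array (x axis) for the 20 genes with the largest rises (left) and the 20 with the largest falls (right) outside the 3 lists set aside. Grey points are the 2 control arrays and orange points the 2 Nutlin-3 arrays; in each gene the groups do not overlap, and genes were chosen for their change.

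Promoter sequence was set beside the change because E2F and CHR elements are the known points of repression in this pathway. RefSeq windows from 250 bases before to 50 after the start (GRCh38.p14) were matched for 14228 genes. An E2F motif (TTTCCCGC, TTTGGCGC, TTTGCCGC or TTTCGCGC on either strand) was in 21.2% of 273 windows of genes that fell 1.5-fold or more. It was in 3.91% of 358 windows of genes that rose as much and in 4.53% of all windows. A CHR motif (TTTGAA or TTCGAA on either strand) was in 30%, 13.1% and 13.3%, and CCAAT, the core letters bound by NF-Y, in 56%, 36.9% and 36.3%. Without the replication, mitosis and target lists, 195 falling genes had a window, and the shares were 19%, 25.6% and 53.8%. At 2-fold or more the E2F share was 29.6% among falling and 5.56% among rising genes. A match to these letters is a description of the sequence and not a bound site.

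**Figure D3:**
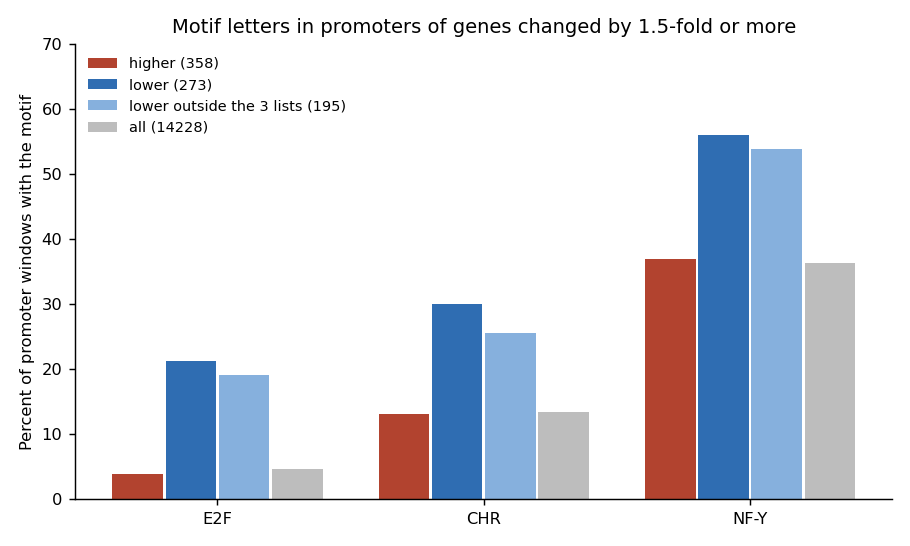
Percent of promoter windows (y axis, from 0) that hold E2F, CHR or NF-Y motif letters, for genes called higher (358 windows) or lower (273) at 1.5-fold or more, for those called lower outside the 3 lists set aside (195) and for all genes with a window (14228). The E2F bars stand at 21.2% for falling genes, 3.91% for rising genes and 4.53% for all genes, and the NF-Y bars at 56%, 36.9% and 36.3%.

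The windows of 5 falling genes outside the lists, each with an E2F match, show how these motifs lie in relation to the start. They do not stand for all such genes, since 37 of 195 windows (19%) held an E2F match. They are CDCA5 (chr11:65083991-65084290, minus strand), RBL1 (chr20:37095948-37096247, minus strand), ZNF367 (chr9:96418321-96418620, minus strand), HELLS (chr10:94545538-94545837, plus strand) and UHRF1 (chr19:4909251-4909550, plus strand). Capitals mark E2F and CHR letters, on either strand, in windows read 5′ to 3′ along the gene.
CDCA5: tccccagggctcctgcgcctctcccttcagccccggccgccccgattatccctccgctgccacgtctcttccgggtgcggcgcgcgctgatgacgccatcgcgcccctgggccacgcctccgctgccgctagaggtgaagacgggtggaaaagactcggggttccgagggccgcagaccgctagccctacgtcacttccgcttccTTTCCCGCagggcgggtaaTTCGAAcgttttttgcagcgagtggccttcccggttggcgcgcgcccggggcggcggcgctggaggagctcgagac
RBL1: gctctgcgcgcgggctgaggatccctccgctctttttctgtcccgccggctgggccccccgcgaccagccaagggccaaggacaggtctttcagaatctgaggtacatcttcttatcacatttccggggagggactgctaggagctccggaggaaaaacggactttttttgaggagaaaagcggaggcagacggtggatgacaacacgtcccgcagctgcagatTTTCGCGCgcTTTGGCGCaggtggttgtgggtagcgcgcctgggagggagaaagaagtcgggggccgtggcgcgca
ZNF367: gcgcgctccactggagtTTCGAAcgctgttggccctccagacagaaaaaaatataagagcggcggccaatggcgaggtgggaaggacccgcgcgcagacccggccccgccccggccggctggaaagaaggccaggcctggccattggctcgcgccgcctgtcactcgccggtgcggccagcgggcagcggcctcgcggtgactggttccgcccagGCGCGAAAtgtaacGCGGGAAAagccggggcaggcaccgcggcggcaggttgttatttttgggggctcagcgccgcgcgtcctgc
HELLS: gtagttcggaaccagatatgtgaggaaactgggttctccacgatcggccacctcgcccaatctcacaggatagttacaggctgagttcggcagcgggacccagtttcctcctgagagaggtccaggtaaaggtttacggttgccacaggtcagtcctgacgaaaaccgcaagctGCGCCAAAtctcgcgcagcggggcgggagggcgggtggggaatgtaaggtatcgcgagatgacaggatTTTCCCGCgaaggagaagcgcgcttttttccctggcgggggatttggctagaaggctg
UHRF1: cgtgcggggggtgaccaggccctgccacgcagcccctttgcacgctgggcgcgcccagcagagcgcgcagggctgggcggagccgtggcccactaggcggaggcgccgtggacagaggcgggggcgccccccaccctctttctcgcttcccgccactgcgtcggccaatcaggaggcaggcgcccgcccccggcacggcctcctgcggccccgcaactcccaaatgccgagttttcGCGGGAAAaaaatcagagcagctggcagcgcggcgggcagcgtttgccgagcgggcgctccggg
In CDCA5 the E2F letters began at -45 and the CHR letters at -26 from the start, and in UHRF1 the E2F letters began at -14. RBL1 and HELLS held 2 E2F matches and no CHR match, and ZNF367 held 2 E2F matches close to the start and a CHR match far upstream.

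Matches to the consensus of 20 bases bound by p53 were rare in the same windows. With up to 2 mismatches, both CNNG cores intact and no spacer, a match was in 5 of 358 windows of genes that rose 1.5-fold or more (1.4%), in 0 of 273 of genes that fell and in 30 of all 14228 (0.211%). Most sites known to be bound by p53 lie outside such short windows. The 5 genes, named after their values were seen, are shown with their matches in capitals because they are the rising genes with a match in the window.
AEN: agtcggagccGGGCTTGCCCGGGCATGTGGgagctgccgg
DCP1B: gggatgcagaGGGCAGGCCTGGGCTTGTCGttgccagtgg
DOCK8: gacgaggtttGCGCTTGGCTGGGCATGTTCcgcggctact
PTCHD4: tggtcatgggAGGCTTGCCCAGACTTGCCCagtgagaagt
RNASE7: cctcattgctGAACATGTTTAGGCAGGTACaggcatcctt
AEN, a nuclease of p53-induced apoptosis and a member of the target list, read 9.87 and 9.88 in control and 10.79 and 10.87 with Nutlin-3. DOCK8, an activator of the GTPase CDC42, read 8.19 and 8.25 against 9.45 and 9.36, a difference of 1.19 (SE 0.070). RNASE7, an antimicrobial ribonuclease of skin, read 7.30 and 7.30 against 8.45 and 8.31, a difference of 1.08 (SE 0.087). PTCHD4, a Patched-related membrane protein, differed by 1.04 (SE 0.18) and DCP1B, a cofactor of mRNA decapping, by 0.73 (SE 0.074). All 5 were called higher, with the widest gap between Nutlin-3 arrays in PTCHD4, whose call was lost without control array 1.

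Beyond single genes, 32 lists of pathways are described, and each count is read against the 9.64% of all genes called higher and 8.89% called lower. Because 1 array is a large part of a group of 2, each count is followed by its left-out counts. These are the numbers called without control array 1, control array 2, Nutlin-3 array 1 and Nutlin-3 array 2, in that order. Among all genes the shares also dropped in these fits, to 4.22%, 5.1%, 6.51% and 7.01% higher and to 3.41%, 3.9%, 6.58% and 5.27% lower, so left-out counts are read against these. The genes named with a change kept their call when any 1 array was left out, unless stated otherwise. Some lists share called members with the lists set aside, as stated beside their counts.

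**Figure D4:**
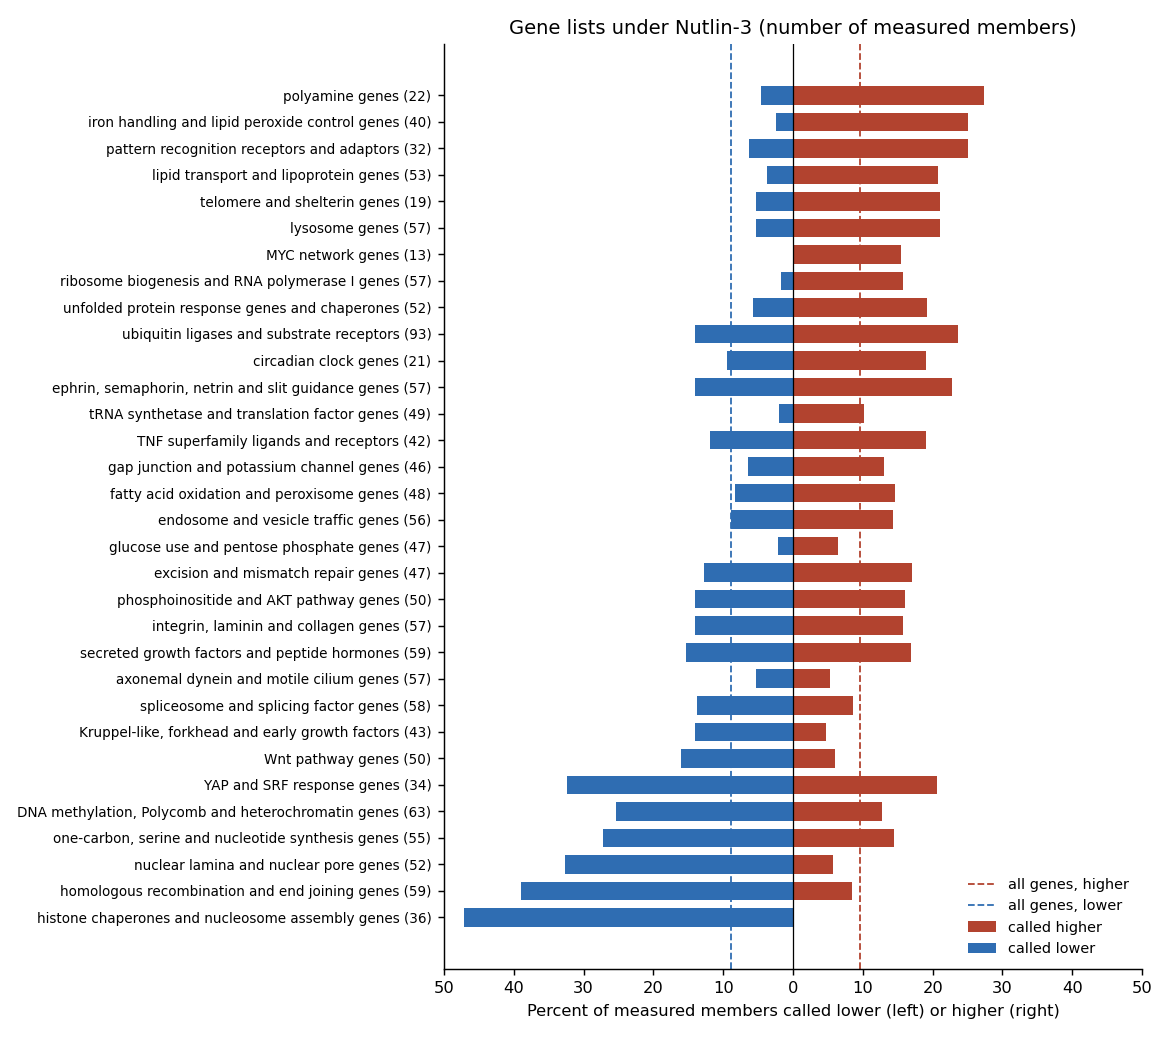
Percent of the measured members of 32 gene lists called lower (blue, to the left) or higher (red, to the right) with Nutlin-3; the number of measured members is in brackets. Dashed lines mark the shares among all 18404 genes, 8.89% lower and 9.64% higher. Histone chaperone genes have the longest bar to the left (47.2%) and polyamine genes the longest to the right (27.3%).

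Many genes that handle histones fell. Of 36 measured histone chaperones and nucleosome assembly genes, 17 were lower (47.2%) and 0 higher, with a list median of -0.24 (left-out counts 0, 1, 0 and 0 higher and 15, 15, 16 and 16 lower). CHAF1B, a subunit of the chaperone CAF-1 that places histones on newly copied DNA, read 8.36 and 8.30 in control and 7.13 and 6.93 with Nutlin-3 and fell by 1.30 (SE 0.086). HJURP, which loads the centromeric histone CENPA, read 8.41 and 8.50 against 7.54 and 7.32 and fell by 1.02 (SE 0.088). DNAJC9, a histone-binding co-chaperone, read 9.97 and 9.92 against 9.04 and 9.04 and fell by 0.91 (SE 0.064). HMGB2, a DNA-bending protein, fell by 0.87 (SE 0.070). None of the measured members belongs to the lists set aside, but those lists are not complete. Absence from them does not place a gene outside the cell cycle response.

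Genes of homologous recombination and end joining fell in large number, and RAD51C had the largest of the rises. Of 59 members, 23 were lower (39%) and 5 higher, with a median of -0.13 (left-out counts 1, 2, 3 and 4 higher and 20, 20, 25 and 22 lower). Beside XRCC2, EXO1, BLM and CHEK1, BRCA1, a tumour suppressor that acts in break repair, read 7.43 and 7.49 in control and 5.99 and 5.92 with Nutlin-3 and fell by 1.505 (SE 0.064). RAD51C, which also acts in homologous recombination, went the other way: it read 8.13 and 8.18 against 9.75 and 9.57 and rose by 1.499 (SE 0.15, adjusted p = 0.000603).

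Excision and mismatch repair genes moved in both directions. Of 47 members 8 were higher (17%) and 6 lower (12.8%), with left-out counts 3, 4, 6 and 4 higher and 4, 5, 4 and 4 lower. XPC, which finds bulky lesions in nucleotide excision repair, read 7.15 and 7.03 in control and 8.32 and 8.29 with Nutlin-3 and rose by 1.21 (SE 0.086). POLH, the polymerase that bypasses ultraviolet lesions, rose by 1.35 (SE 0.074) and DDB2, which works with XPC in lesion recognition, by 0.79 (SE 0.062), and all 3 are in the target list. Without them, 5 of 44 members were higher and 6 lower. UNG, which removes uracil from DNA, read 8.54 and 8.54 against 7.37 and 7.39 and fell by 1.16 (SE 0.060), and MSH6, a mismatch sensor, read 8.28 and 8.26 against 7.21 and 7.26 and fell by 1.04 (SE 0.061). Both act behind the replication fork.

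Chromatin regulators included some of the largest falls. Of 63 DNA methylation, Polycomb and heterochromatin genes 16 were lower (25.4%) and 8 higher, with left-out counts 2, 2, 1 and 4 higher and 9, 10, 15 and 13 lower. ATAD2, a bromodomain ATPase, read 9.84 and 9.84 in control and 7.91 and 7.85 with Nutlin-3 and fell by 1.96 (SE 0.063). HELLS, a remodeller needed for DNA methylation, fell by 1.34 (SE 0.096) and EZH2, the Polycomb methyltransferase, by 0.98 (SE 0.077). PHF19, a Polycomb cofactor, read 8.30 and 8.30 against 7.61 and 7.20 and fell by 0.90 (SE 0.14), with its Nutlin-3 arrays further apart than its control arrays. KDM7A, a histone demethylase, rose by 0.82 (SE 0.069).

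The nuclear envelope also moved. Of 52 lamina and nuclear pore genes 17 were lower (32.7%) and 3 higher, with a median of -0.13 (left-out counts 0, 0, 0 and 3 higher and 8, 10, 14 and 10 lower). LMNB1, the B-type lamin whose loss marks senescent cells, read 7.51 and 7.53 in control and 6.32 and 6.13 with Nutlin-3 and fell by 1.29 (SE 0.084, adjusted p = 6.6e-05). TMPO, a lamina-associated protein, read 10.13 and 10.13 against 9.31 and 9.07 and fell by 0.94 (SE 0.10). Among pore proteins NUP210 fell by 0.66 (SE 0.079) and NUP85 by 0.57 (SE 0.071), and SYNE2, which ties the nucleus to the cytoskeleton, fell by 0.50 (SE 0.079).

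Nucleotide supply changed in both directions. Of 55 one-carbon, serine and nucleotide synthesis genes 15 were lower (27.3%) and 8 higher (14.5%), with left-out counts 3, 5, 5 and 7 higher and 9, 10, 12 and 10 lower. Outside the lists set aside the counts were 12 lower and 7 higher of 50. RRM2, the S-phase subunit of ribonucleotide reductase, read 7.14 and 7.45 in control and 5.53 and 5.52 with Nutlin-3 and fell by 1.77 (SE 0.098), while its p53-induced counterpart RRM2B read 9.77 and 9.78 against 11.06 and 11.16 and rose by 1.33 (SE 0.067). TK1, thymidine kinase, fell by 1.22 (SE 0.074), and SLC29A1, which carries nucleosides into cells, fell by 0.97 (SE 0.073). GLDC, the mitochondrial glycine decarboxylase that feeds one-carbon units, rose by 1.14 (SE 0.092).

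**Figure D5:**
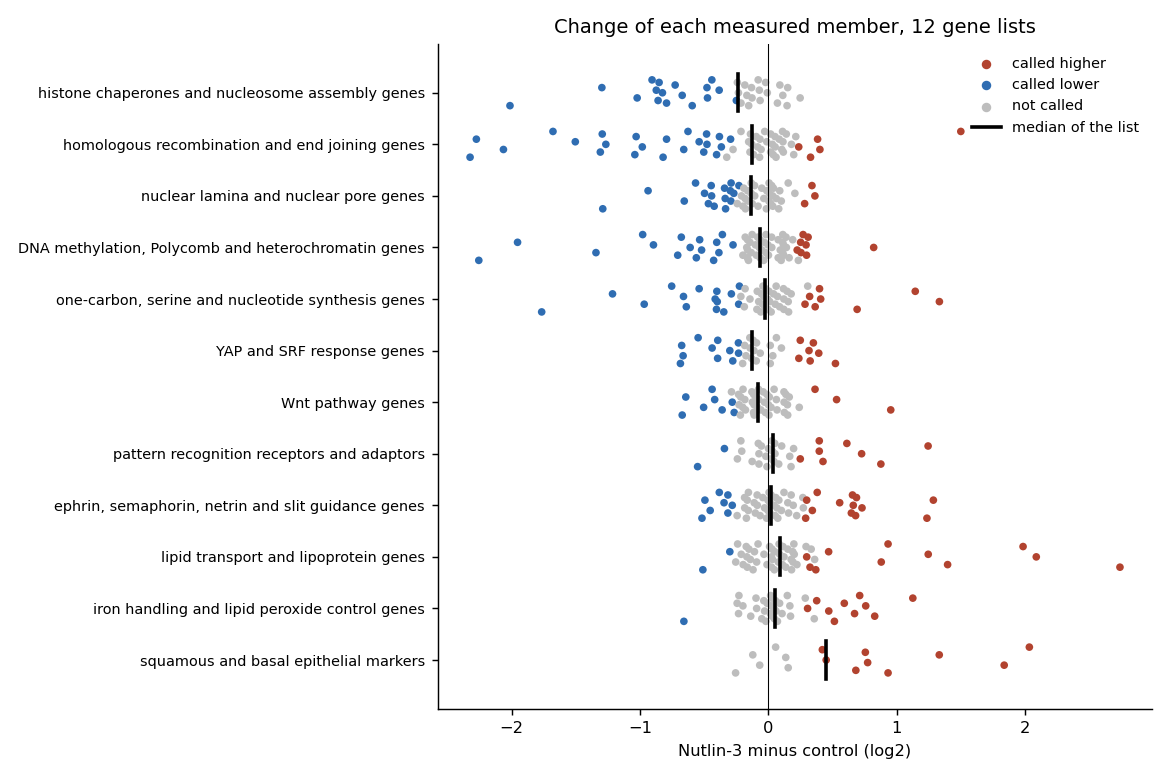
Nutlin-3 minus control on the log2 scale (x axis) for every measured member of 12 lists, red where called higher, blue where called lower and grey where not called; black bars mark list medians. The median of squamous markers lies at 0.45 and that of histone chaperones at -0.24, and in most other lists called genes lie on both sides of a median near 0.

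Measured markers of squamous epithelium were called higher or not called. Of 15 measured squamous and basal markers 9 were higher and 0 lower, with a median of 0.45 (left-out counts 9, 8, 9 and 9 higher). Outside the target list, which holds KRT15, 8 of 14 were higher, and other members may be targets that the list lacks. Members were chosen with earlier results of these data known. Of those named in the plan, KRT15, DSG3, DSC3 and SERPINB5 were higher, and KRT5, KRT14, SOX2, TRIM29 and ITGB4 were not called. The summed linear intensity of all 15 was 23223 and 24040 in the control arrays and 31945 and 31045 with Nutlin-3. Beside DSG3 and CLCA2, S100A2, a calcium-binding protein of basal cells, read 8.81 and 8.82 in control and 10.29 and 10.00 with Nutlin-3 and rose by 1.33 (SE 0.13). DSC3, the desmosomal partner of DSG3, rose by 0.76 (SE 0.073), LAMB3, a chain of laminin-332, by 0.77 (SE 0.072), and BNC1, a basal transcription factor, by 0.68 (SE 0.063). SERPINB5, the serpin maspin, rose by 0.45 (SE 0.065). JAG1, a Notch ligand, differed by 0.42 (adjusted p = 0.00806) and lost its call without control array 2. The basal keratins KRT5 (12.23 and 12.33 in control) and KRT14 (10.40 and 10.36) were bright in both groups and were not called, with differences of 0.06 and -0.26. TRIM29, ITGB4 and PKP1 were not called either, with differences of 0.15, 0.135 and -0.12. SOX2 read 5.76 and 5.79 in control and 5.69 and 5.72 with Nutlin-3, a dim probe set in both groups, and some keratins of the marker set were not analysed here.

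The lists of markers of other cell types had medians between -0.19 and 0.03. Of 12 mesothelial markers 2 were higher, BNC1 and KRT19, both also epithelial, and the call of KRT19 (a difference of 0.33) was lost without control array 1, control array 2 or Nutlin-3 array 1. MSLN read 9.77 and 9.82 in control and 9.76 and 9.89 with Nutlin-3. KRT7 (12.98 and 13.06 in control), KRT19 (10.4 and 10.4), THBD (10.0 and 10.1) and BNC1 (9.83 and 9.84) were bright as well. The remaining members, WT1 and CALB2 among them, read 6.30 or less in all 4 arrays. Of 12 fibroblast markers 0 were higher and 0 lower in limma's test, and their summed intensity was 1220 and 1280 against 1275 and 1205. Of 13 leukocyte markers CD68, a lysosomal protein, was higher by 0.29, a call lost without any 1 of the 4 arrays, and PTPRC, which defines leukocytes, read at most 4.48. Of 10 endothelial markers 1 was higher and 2 lower. They summed to 857 and 816 in control and 675 and 691 with Nutlin-3, with CDH5 lower by 0.47 as the bright member (8.58 and 8.52 in control), a call lost without control array 1, and VWF and PECAM1 at 5.57 or less. ESAM was lower by 0.37, a call lost without control array 1 or Nutlin-3 array 1, and the dim TEK was higher by 0.30, a call lost without any 1 of the 4 arrays. Of 8 airway and alveolar markers 1 was lower, and they summed to 723 and 713 against 657 and 696. The lower one, the lung factor NKX2-1, differed by -0.38, a call lost without control array 1, control array 2 or Nutlin-3 array 2. The part of other cell types in the results was not tested.

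Innate sensing genes rose in part. Of 32 pattern recognition receptors and adaptors 8 were higher (25%) and 2 lower, with a median of 0.04 (left-out counts 4, 6, 5 and 7 higher and 0, 0, 1 and 2 lower). CASP1, the protease of inflammasomes, read 6.84 and 6.61 in control and 8.01 and 7.93 with Nutlin-3 and rose by 1.24 (SE 0.095). TLR3, the endosomal receptor for double-stranded RNA, read 8.27 and 8.33 against 9.14 and 9.21 and rose by 0.88 (SE 0.066). NLRP3, an inflammasome sensor, rose by 0.73 (SE 0.093) and IFI16, a nuclear DNA sensor, by 0.61 (SE 0.062). The cytosolic sensors CGAS and RIGI differed by -0.55 and -0.34, and both calls were lost without control array 1, control array 2 or Nutlin-3 array 1.

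Receptors of the TNF family that rose were mostly known p53 targets. Of 42 ligands and receptors 8 were higher and 5 lower, with left-out counts 5, 6, 7 and 7 higher and 0, 1, 4 and 2 lower, and outside the lists set aside 3 of 37 were higher and 5 lower. EDA2R, the receptor for ectodysplasin A2, read 9.45 and 9.43 in control and 11.45 and 11.41 with Nutlin-3 and rose by 2.00 (SE 0.063). FAS, the death receptor, read 9.62 and 9.66 against 10.93 and 10.90 and rose by 1.27 (SE 0.060). The neighbouring TRAIL receptor genes TNFRSF10B, TNFRSF10D and TNFRSF10A rose by 1.10, 1.25 and 1.01. TNFRSF10D, a decoy receptor without a working death domain, thus rose alongside the death receptors.

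Guidance molecules, which steer axons and also set epithelial boundaries, moved in both directions. Of 57 members 13 were higher (22.8%) and 8 lower (14%), with left-out counts 9, 11, 12 and 12 higher and 3, 3, 5 and 3 lower. NRP2, a co-receptor for semaphorins and VEGF, read 7.31 and 7.30 in control and 8.45 and 8.73 with Nutlin-3 and rose by 1.29 (SE 0.12), and its dimmer probe set differed by 0.93. EFNB1, an ephrin ligand, read 8.50 and 8.60 against 9.79 and 9.79 and rose by 1.24 (SE 0.070). NTN1, the ligand netrin, rose by 0.73 (SE 0.10) together with its receptor UNC5B (0.69, SE 0.069), and SEMA3B, a secreted semaphorin, by 0.68 (SE 0.074). SEMA5A fell by 0.52 (SE 0.062) and EFNA1 by 0.50 (SE 0.073).

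Among Wnt genes more were lower than higher. Of 50 members 8 were lower (16%) and 3 higher, with a median of -0.08 (left-out counts 2, 2, 3 and 3 higher and 5, 5, 7 and 5 lower). FZD1, a frizzled receptor for Wnt ligands, read 8.08 and 8.15 in control and 7.35 and 7.54 with Nutlin-3 and fell by 0.67 (SE 0.098). FZD2 read 8.73 and 8.83 against 8.15 and 8.12 and fell by 0.64 (SE 0.066), and FZD7 fell by 0.51 (SE 0.071). The ligands WNT7A and WNT9A went up, by 0.95 (SE 0.088) and 0.53 (SE 0.080).

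Response genes and partners of the mechanical regulators YAP and SRF were called in both directions. Of 34 members 11 were lower (32.4%) and 7 higher (20.6%), with a median of -0.13 (left-out counts 1, 2, 2 and 3 higher and 5, 5, 6 and 6 lower). Without ACTA2, which is in the target list, 10 of 33 were lower. CNN1, the actin-binding calponin, read 9.56 and 9.56 in control and 8.91 and 8.84 with Nutlin-3 and fell by 0.69 (SE 0.063). ANKRD1, a much used YAP reporter gene, read 8.76 and 8.83 against 8.16 and 8.08 and fell by 0.68 (SE 0.076). EDN1, the vasoconstrictor endothelin, fell by 0.67 (SE 0.067) and TEAD2, a DNA-binding partner of YAP, by 0.55 (SE 0.069). AMOTL1, an angiomotin that holds YAP out of the nucleus, rose by 0.52 (SE 0.064).

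Regulators of Ras-type GTPases and of phosphoinositides were called in both directions. RALGDS, which activates the GTPase RAL, read 8.20 and 8.20 in control and 9.28 and 9.34 with Nutlin-3 and rose by 1.11 (SE 0.063), and RAP2B, a target-list GTPase, rose by 0.89 (SE 0.060). RASGRP1, a Ras activator, fell by 0.70 (SE 0.093). Of 50 phosphoinositide and AKT genes 8 were higher and 7 lower, with left-out counts 6, 6, 7 and 7 higher and 2, 1, 3 and 2 lower. INPP5D, the phosphatase SHIP1 best known from blood cells, read 10.56 and 10.59 against 11.88 and 11.88 and rose by 1.31 (SE 0.060, adjusted p = 1.44e-05). PHLDA1 rose by 1.03 (SE 0.062), PIK3R3, a regulatory subunit of phosphoinositide kinase, by 0.76 (SE 0.073), and PLCXD2 by 0.69 (SE 0.076), while the SHIP2 gene INPPL1 fell by 0.45 (SE 0.068). The 2 SHIP genes thus moved in opposite directions.

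Secreted growth factors were called in both directions. Of 59 members 10 were higher (16.9%) and 9 lower (15.3%), with left-out counts 6, 8, 9 and 8 higher and 6, 6, 6 and 8 lower. CSF1, the growth factor of macrophages, read 8.11 and 8.03 in control and 9.40 and 9.51 with Nutlin-3 and rose by 1.38 (SE 0.070). KITLG, the ligand of KIT and a known p53 target in skin, read 6.74 and 6.58 against 7.93 and 7.77 and rose by 1.19 (SE 0.096). VEGFA, the endothelial growth factor, rose by 0.67 (SE 0.061). Together with STC1 and ANGPTL4 (1.40, SE 0.12) these were the members of the list that rose most.

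Integrin, laminin and collagen genes, channels and cilium genes were called in both directions. Of 57 matrix genes 9 were higher (15.8%) and 8 lower (14%), with left-out counts 3, 4, 5 and 7 higher and 2, 2, 5 and 4 lower. NID1, the basement membrane linker nidogen, read 5.69 and 5.41 in control and 6.29 and 6.70 with Nutlin-3 and rose by 0.95 (SE 0.15), and ITGA2, a collagen receptor chain, rose by 0.45 (SE 0.063). ITGB3, the beta chain of the vitronectin receptor, read 8.94 and 8.98 against 8.27 and 8.23 and fell by 0.71 (SE 0.063). Of 46 gap junction and potassium channel genes 6 were higher and 3 lower, with left-out counts 4, 5, 4 and 4 higher and 2, 1, 4 and 2 lower. KCNJ15, an inward rectifier, rose by 1.11 (SE 0.12), KCNG1, a modifier of voltage-gated channels, by 0.76 (SE 0.073), and GJB5, an epidermal connexin, by 0.66 (SE 0.070), whereas the connexin GJC1 fell by 0.62 (SE 0.078). Of 57 axonemal and cilium genes, mostly dim, 3 were higher and 3 lower, with left-out counts 3, 2, 2 and 3 higher and 0, 0, 0 and 0 lower. DNAI3, an axonemal dynein intermediate chain and a member of the target list, read 6.598 and 6.70 against 9.14 and 9.04 and rose by 2.44 (SE 0.073), the second largest rise of all genes. RSPH3, a radial spoke protein, rose by 0.48 (SE 0.064).

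Most called lipid carriers were higher. Of 53 lipid transport and lipoprotein genes 11 were higher (20.8%) and 2 lower (3.77%), with a median of 0.09 (left-out counts 8, 8, 9 and 12 higher and 0, 0, 1 and 2 lower), and 9 of 51 were higher outside the target list. ABCA12, which carries lipids into the granules that waterproof skin and is in the target list, read 8.41 and 8.49 in control and 11.21 and 11.17 with Nutlin-3 and rose by 2.74 (SE 0.065, adjusted p = 2.89e-06). PLTP, the phospholipid transfer protein of plasma and also a listed target, rose by 2.09 (SE 0.067). ABCA1, the exporter of cholesterol, read 5.60 and 5.47 against 6.76 and 6.80 and rose by 1.25 (SE 0.069). ANGPTL4, which inhibits lipoprotein lipase, read 6.26 and 6.43 against 7.64 and 7.84. These products act at the membrane or outside the cell.

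Fatty acid oxidation genes had shares closer to those of all genes. Of 48 members 7 were higher (14.6%) and 4 lower (8.33%), with left-out counts 4, 5, 4 and 7 higher and 2, 2, 2 and 3 lower. CROT, which moves medium-chain acyl groups out of peroxisomes, read 7.56 and 7.53 in control and 8.72 and 8.73 with Nutlin-3 and rose by 1.18 (SE 0.077). SLC25A20, the mitochondrial carrier of acylcarnitine, rose by 0.69 (SE 0.086) and EHHADH, a peroxisomal enzyme, by 0.47 (SE 0.067). PPARGC1A, the coactivator that drives mitochondrial genes, read 10.26 and 10.19 against 9.56 and 9.67 and fell by 0.61 (SE 0.072), and ACOX3 fell by 0.46 (SE 0.061).

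Most called genes of iron handling and lipid peroxide control were higher. Of 40 members 10 were higher (25%) and 1 lower, with a median of 0.05 (left-out counts 6, 7, 8 and 8 higher and 1, 1, 1 and 1 lower). Without the listed target STEAP3, 9 of 39 were higher. ISCU, the scaffold on which iron-sulphur clusters are built, read 9.65 and 9.50 in control and 10.73 and 10.67 with Nutlin-3 and rose by 1.13 (SE 0.082). ALOX5, which oxidises arachidonic acid, read 9.21 and 9.18 against 10.01 and 10.04 and rose by 0.83 (SE 0.060). The metal reductases STEAP2 and STEAP3 rose by 0.76 (SE 0.065) and 0.71 (SE 0.064), and STEAP4 of the same family fell by 0.66 (SE 0.077). HMOX1, which frees iron from haem, rose by 0.67 (SE 0.064). Members of the STEAP family were thus called in both directions.

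Polyamine genes were called higher in a larger share than all genes (27.3% against 9.64%), and glucose genes in a smaller share (6.38%). The polyamine share also stayed above that of all genes with each control or Nutlin-3 array left out. The counts in both lists were small, and some calls were lost without an array. Of 22 polyamine genes 6 were higher (27.3%) and 1 lower, with left-out counts 2, 4, 5 and 5 higher and 0, 0, 1 and 0 lower. ARG2, the mitochondrial arginase, read 6.45 and 6.71 in control and 7.16 and 7.15 with Nutlin-3 and rose by 0.57 (SE 0.096). SAT1, the acetyltransferase that starts polyamine breakdown, read 10.78 and 11.03 against 11.51 and 11.24, and its call (adjusted p = 0.0434) was lost without control array 1, control array 2 or Nutlin-3 array 1. Of 47 glucose and pentose phosphate genes 3 were higher (6.38%) and 1 lower, with left-out counts 2, 2, 3 and 2 higher and 0, 1, 2 and 1 lower. TIGAR, a listed p53 target that lowers fructose bisphosphate, rose by 1.47 (SE 0.073), and PFKFB4, which makes the same regulator, rose by 0.57 (SE 0.088). The other glucose genes contributed 1 lower call and 1 further higher call.

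Protein turnover and traffic had several strong single changes. Of 93 ubiquitin ligases and substrate receptors 22 were higher (23.7%) and 13 lower (14%), with left-out counts 13, 16, 15 and 20 higher and 5, 5, 9 and 7 lower. Without the targets FBXW7, FBXO22 and MDM2, 19 of 90 were higher. FBXW7, the receptor that targets cyclin E and MYC and is in the target list, read 7.26 and 7.32 in control and 8.87 and 8.69 with Nutlin-3 and rose by 1.49 (SE 0.11). TRIM22, an antiviral ligase, read 8.54 and 8.64 against 10.08 and 9.85 and rose by 1.37 (SE 0.091). FBXO5, the brake on the anaphase-promoting complex, read 9.32 and 9.29 against 7.90 and 7.90 and fell by 1.40 (SE 0.073). Of 57 lysosome genes 12 were higher (21.1%) and 3 lower, with left-out counts 3, 6, 5 and 9 higher and 0, 0, 1 and 0 lower. GM2A, the activator of ganglioside breakdown, rose by 0.74 (SE 0.067), and the hydrolases FUCA1 and CTSL by 0.42 (SE 0.065) and 0.41 (SE 0.063).

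Of 56 endosome and vesicle genes 8 were higher (14.3%) and 5 lower (8.93%), with left-out counts 7, 7, 7 and 7 higher and 4, 4, 6 and 5 lower. Without the listed target STEAP3, 7 were higher. CD82, a tetraspanin that suppresses metastasis, read 9.07 and 9.14 in control and 10.01 and 10.00 with Nutlin-3 and rose by 0.90 (SE 0.062). STX6, a fusion protein of the trans-Golgi, rose by 0.73 (SE 0.071), RAB38 by 0.70 (SE 0.075) and AP1S1, an adaptor subunit, by 0.64 (SE 0.071). RAB32, the closest relative of RAB38, fell by 0.59 (SE 0.062), as did EXPH5, an effector of RAB27, by 0.60 (SE 0.061). The related GTPases RAB38 and RAB32 thus moved apart. Of 52 unfolded protein response genes and chaperones 10 were higher (19.2%) and 3 lower, with left-out counts 1, 0, 4 and 5 higher and 1, 0, 1 and 1 lower, so that few calls survived the loss of an array. DDIT3, the stress factor CHOP, read 7.56 and 7.48 against 7.90 and 7.92, a call lost without control array 1, control array 2 or Nutlin-3 array 2.

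Genes of RNA and protein production changed by small amounts. Of 57 ribosome biogenesis genes 9 were higher (15.8%) and 1 lower, with a median of 0.09 (left-out counts 2, 3, 3 and 5 higher and 0, 0, 0 and 0 lower). UTP3 and WDR43, both of the small subunit processome, rose by 0.55 (SE 0.089) and 0.47 (SE 0.071). Of 49 tRNA synthetase and translation factor genes 5 were higher (10.2%) and 1 lower, with left-out counts 3, 2, 3 and 5 higher and 0, 0, 1 and 1 lower, and SARS1, the seryl-tRNA synthetase, rose by 0.59 (SE 0.068) and EIF2B3 by 0.56 (SE 0.077). Of 58 splicing genes 5 were higher (8.62%) and 8 lower (13.8%), with left-out counts 0, 3, 3 and 4 higher and 1, 0, 4 and 0 lower, and the differences ran only from -0.38 to 0.43. Of 19 telomere genes 4 were higher and 1 lower, with left-out counts 1, 2, 3 and 2 higher and 1, 1, 1 and 1 lower: SMG6, a nuclease of RNA decay, rose by 0.71 (SE 0.066), and ACD, the shelterin subunit TPP1, fell by 0.49 (SE 0.081).

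Families of transcription factors had shares on both sides of those of all genes, from 4.65% to 19% higher and from 0 to 14% lower. Of 13 MYC network genes 2 were higher and 0 lower, with left-out counts 1, 1, 2 and 1 higher and 0, 0, 1 and 0 lower, and MXD1, which competes with MYC for MAX, read 8.98 and 9.05 in control and 9.63 and 9.61 with Nutlin-3 and rose by 0.60 (SE 0.070). Of 21 circadian genes 4 were higher (19%) and 2 lower, with left-out counts 1, 1, 1 and 1 higher and 0, 1, 1 and 0 lower. NR1D1, the repressor REV-ERB alpha, read 8.09 and 8.05 against 8.62 and 8.55 and rose by 0.52 (SE 0.070), the only clock gene named by the rule that kept its call without any 1 array. Of 43 Kruppel-like, forkhead and early growth factors 2 were higher and 6 lower (14%), with left-out counts 0, 1, 1 and 1 higher and 1, 1, 6 and 3 lower, and KLF12 fell by 0.45 (SE 0.060).

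Pairs of neighbouring genes called in the same direction were few in number. In RefSeq order (GRCh38.p14) 18376 genes formed 18351 adjacent pairs, and in 22 pairs (0.12%) both members were higher at 1.5-fold or more and in 15 (0.0817%) both lower. Among single genes the shares were 2.48% and 1.78%, but a pair needs both members called, so these are no baseline for pairs. Whether neighbours moved together more or less often than other pairs was not tested. Of 21 runs of higher and 14 runs of lower genes, 2 held 3 genes. The first is the TRAIL receptor cluster described above. The other lies in the histone cluster of chromosome 6, where H3C7, H2BC9 and H3C8 fell by 0.92 (SE 0.10), 1.13 (SE 0.079) and 0.95 (SE 0.11). Probe sets of histone genes can share sequence, so these values are uncertain as single genes. Pairs picked after their values were seen include F2R and F2RL2, both thrombin receptors, which rose by 1.05 and 0.79. ALOX5 and its neighbour MARCHF8, a membrane-bound ubiquitin ligase, rose by 0.83 and 1.25.

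The Nutlin-3 arrays did not match each other equally well in every gene. The median SD over genes was 0.061 between the Nutlin-3 arrays and 0.049 between the control arrays. Among called genes the largest gap was in ARL14, which read 5.07 and 5.31 in control and 6.34 and 5.57 with Nutlin-3. Its call (adjusted p = 0.0463) was lost without control array 1, control array 2, Nutlin-3 array 1 or either shp63 ON array. The noncoding RNA LINC00652 read 5.72 and 6.23 against 4.22 and 4.97 and INKA2, an inhibitor of the kinase PAK4, 6.53 and 6.34 against 7.85 and 7.19. Both calls (adjusted p = 0.0114 and 0.00818) were lost without control array 2. PXT1 read 4.56 and 4.42 against 5.43 and 6.08. CDC6, an origin licensing factor, read 9.89 and 9.83 against 6.72 and 6.08, and its difference of -3.46 (SE 0.24) was far larger than its gap.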

How the data were processed

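Total RNA was read on Affymetrix HuGene 1.0 ST arrays, 2 for each of the 3 groups. Values are log2 probe set intensities as deposited by the authors in the series' value table. Their scale was read from the values (2.94 to 14.88, array medians 6.57 to 6.70). The submitters' processing notes name Partek. The method of background correction and normalization was not given in the sources used here. Depth does not apply to arrays; precision is limited by how few there are, and the smallest two-sided p of an exact permutation test with 2 arrays a group is 0.333.

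Of 32321 probe sets, 19158 name 1 gene, 1388 several and 11775 none; 19128 of the first were found by Entrez identifier in RefSeq with 0 changes of symbol. Of the 18404 genes, 637 had several probe sets. No dim gene was removed. All 6 arrays were fitted with limma 3.58.1 (R 4.3.3; lmFit, eBayes, 1 mean per group, no block, 3 residual degrees of freedom before moderation). Adjustment was by Benjamini-Hochberg across the 18404 genes. Every adjusted p in the text is from this fit unless another setting is named. The fit was tested on simulated data. Motifs and gene order came from RefSeq tables.

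Genes were named by rule: the 3 markers, the 20 largest rises and falls outside the lists set aside, up to 5 called members per list and 2 against its majority, called cell type markers, the 5 widest gaps between Nutlin-3 arrays, and runs of 3 neighbours. The largest rises and falls were taken among called genes whose groups do not overlap. Members, lists and rules were chosen with earlier results of these data known. Alternatives were the arrays fitted, the replicate block, prior variance, 3 normalizations, a filter at log2 6, the mean of probe sets, the unmoderated analysis of variance, each array left out and a fold minimum of 2 for promoters. Probe sets naming several genes or none, and some list members, were not analysed here, and the count of 1 list is not reported here.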

Additional observations from a re-analysis of the deposited data

How the results depend on the processing

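The counts of 1774 genes higher and 1636 lower stayed within 1.5 times under most settings. They were 1603 and 1388 with only the control and Nutlin-3 arrays, 2200 and 1843 with a variance trend, 1754 and 1614 with robust moderation, 2175 and 1236 with arrays centred on their median, 1617 and 1495 after quantile normalization, 1708 and 1631 after cyclic loess, 1989 and 1847 with genes of mean level 6 or more, and 1748 and 1617 with the mean of probe sets. The unmoderated analysis of variance gave 687 and 549, the fewest calls of these settings. Leaving out 1 array gave 777 (without control array 1) to 1603 genes higher and 628 (without control array 1) to 1388 lower; without control array 2 the counts were 939 and 717, and without Nutlin-3 array 2 the lower count was 969. Whether the replicate numbers pair the arrays is not known. Deviations of same-numbered arrays correlated at -0.062 for control and Nutlin-3 and at -0.016 for control and shp63 ON. For Nutlin-3 and shp63 ON they correlated at 0.107, and such values cannot decide whether arrays were paired. With the replicate block the counts were 1628 and 1469.

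Of 238 named genes, 131 were called in every setting, 73 lost the call without some array, 100 lost it in another setting (98 of them in the unmoderated analysis of variance) and 0 changed direction. The cause was not tested. With a fold minimum of 2 the share of rising genes with a p53 match was 2.78% (3 of 108) in place of 1.4%. Few dim genes were called: of 2021 genes between 4 and 5 in control, 1.48% were called higher.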
